A study of Homo sapiens with 3 samples.

Results

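The comparison described here sets 1 RNA-seq library of H1975 cells transfected with siHHLA3-1 against 1 library transfected with the control siRNA, siNC. Its members are all genes whose CPM averaged 1 or more across the 3 libraries of the series, 13879 of the 16662 genes listed. The other 2783 genes were below that level and were not compared. CPM is the number of reads of a gene per 1000000 reads of a library total that was scaled by TMM, a factor that brings the bulk of genes to a common level. RSPH9 and DYNLT2B lay just inside that limit, with means of 1.006 CPM, and ATP5MFP2 and RNF39 just outside, with 0.998 and 0.994 CPM. A small interfering RNA (siRNA) is a short synthetic duplex that directs the cell's RNA-cutting machinery to a matching transcript. HHLA3 is the gene that siHHLA3-1 was made to lower. The other library of the series, transfected with siHHLA3-3, a differently numbered siRNA against the same gene, is given beside the results.

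H1975 is an established human lung adenocarcinoma line that carries mutant EGFR. The labels give the source as lung cancer tissue but also name the line, so all libraries are from cultured cells. All 3 groups received transfection reagent and an siRNA at about 70% confluency, spent 6 h in medium without serum, and were collected after a further 24 h in medium containing 10% serum. The labels name DMEM for growth and another medium for the treatment. The siNC, siHHLA3-1 and siHHLA3-3 libraries are labelled as batches 24h-1, 24h-2 and 24h-3, which means that the batch and the siRNA cannot be told apart. No library of untransfected cells was analysed here, and the transfection itself is shared by all groups. No siRNA sequence was given in the sources used here.

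There were no replicates, so no p-value was computed. Intervals printed after a fold are exact 95% binomial intervals that cover counting error only, not the spread between cultures. The ratio of a gene is log2 of (CPM with siHHLA3-1 + 1) over (CPM with siNC + 1), which understates the difference of genes with low counts, and a fold is the ratio of CPM without the added 1. A gene was counted as higher or lower when its ratio reached 2-fold, and as 1.5-fold higher or lower at the smaller size. In bulk RNA, fewer cells of a kind and less RNA per cell cannot be told apart.

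Cells with double-stranded RNA in the cytoplasm or endosome can sense it through receptors such as RIG-I, MDA5 and TLR3, which lead to interferon. Interferon acts through the JAK kinases, STAT2 and IRF9 on promoters that carry an interferon-stimulated response element, and the genes it raises include antiviral effectors, MHC class I presentation and death ligands. The guide strand of an siRNA can also lower transcripts that pair with its bases 2 to 8, the seed, in their 3′ untranslated region (3′ UTR), as a microRNA does.

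Library totals were 32813003 (siNC), 35069930 (siHHLA3-1) and 26950852 reads (siHHLA3-3). Mitochondrially encoded genes took 6.24%, 6.22% and 5.93% of them. Of 11 markers of lung adenocarcinoma and epithelium, 10 passed the filter, and SFTPB did not. KRT7, a keratin of glandular epithelium, had levels of 1902 (siNC) and 1609.9 CPM (siHHLA3-1), and NKX2-1, the lung lineage factor, levels of 65.7 (siNC) and 72.0 CPM (siHHLA3-1). EGFR had levels of 324 (siNC) and 297 CPM (siHHLA3-1). Of 48 markers of blood, endothelial, stromal and neural cells, 12 passed the filter, and their levels summed to 278 (siNC), 351 (siHHLA3-1) and 209 CPM (siHHLA3-3). PTPRC and PECAM1, which define blood cells and endothelium, did not pass it. Of 7 endothelial markers 3 passed, all with positive ratios and summing to 130.02 (siNC), 173 (siHHLA3-1) and 53.5 CPM (siHHLA3-3), most of it from ENG. CDH5 and COL1A1, markers of endothelium and fibroblasts, were the 2 that were at least 2-fold higher, and the part of other cell types in the results was not tested.

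HHLA3, the targeted gene, had levels of 5.99 (siNC), 1.55 (siHHLA3-1) and 0.735 CPM (siHHLA3-3) (192, 55 and 20 counts). It was 3.86-fold lower with siHHLA3-1 (95% counting interval 2.85 to 5.31), a ratio of -1.45. The gene (ENSG00000197568) lies on chromosome 1 at chr1:70354805-70385339 (plus strand, GENCODE 29 on GRCh38; the submitters' processing notes name hg19). The neighbours compared were CTH, ANKRD13C, LRRC40, SRSF11 and ZRANB2. CTH, the cystathionine gamma-lyase downstream of it, had levels of 7.61 (siNC) and 9.12 CPM (siHHLA3-1), and ANKRD13C, which starts on the opposite strand beside it, levels of 32.2 (siNC) and 26.2 CPM (siHHLA3-1). The ratios of LRRC40, SRSF11 and ZRANB2 were -0.19, 0.08 and 0.06. Of these 6 genes of the locus, HHLA3 was the one at least 2-fold apart.

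Between the libraries, 135 genes (0.973% of 13879) were at least 2-fold higher with siHHLA3-1 and 53 (0.382%) at least 2-fold lower. The counting interval excluded equality for all 188 of them (1.35%), but also for 8496 genes in all (61.2%), so at this depth the interval alone sets few genes apart. At the 2-fold limit, MX1, an antiviral GTPase, lay just outside (574 against 1149.6 CPM) and NT5C3A, a nucleotidase, just inside (82.5 against 166 CPM). The ratios had a median of -0.01, the middle 50% lay between -0.20 and 0.19, and they ran from -0.51 at the 5th percentile to 0.59 at the 95th. At 1.5-fold there were 698 higher genes (5.03%) and 463 lower ones (3.34%). The median ratio varied with the level, from 0.07 in the lowest of 5 classes of mean CPM to -0.07 in the highest. It differed little with exon length, from -0.02 in the shortest of 5 classes to 0.00 in the longest. Values of the siHHLA3-3 library are set beside these genes below, and both comparisons use the same siNC library.

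**Figure D1:**
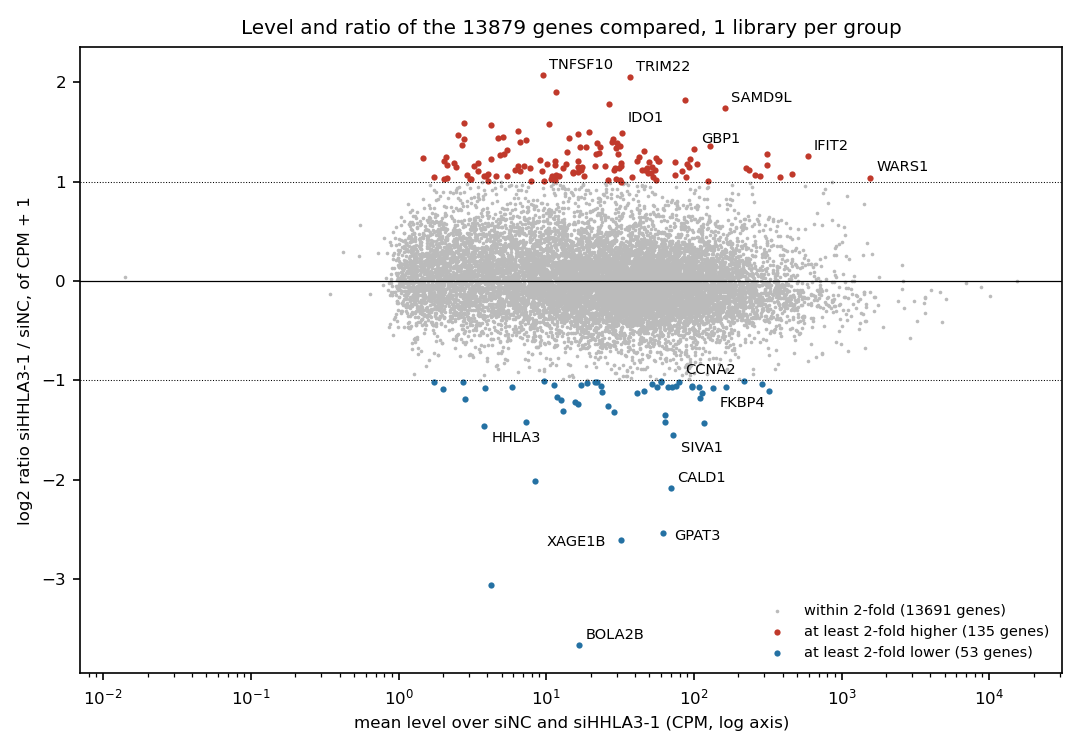
Each point is 1 of the 13879 genes, with the mean CPM of the siNC and siHHLA3-1 libraries on a log axis and the log2 ratio of siHHLA3-1 to siNC vertically. The 135 genes at least 2-fold higher and the 53 at least 2-fold lower lie outside a band that holds most genes at every level, and the ratios run from -3.66 (BOLA2B) to 2.07 (TNFSF10).

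The genes with the largest positive ratios included interferon-stimulated genes, a death ligand and a BH3-only gene. TNFSF10, the death ligand TRAIL, had levels of 3.02 (siNC), 15.9 (siHHLA3-1) and 3.20 CPM (siHHLA3-3) and was 5.24-fold higher with siHHLA3-1 (95% counting interval 4.22 to 6.57). TRIM22, an antiviral ubiquitin ligase, had levels of 13.8 (siNC), 60.3 (siHHLA3-1) and 15.9 CPM (siHHLA3-3) and was 4.37-fold higher (3.94 to 4.85). For both genes the siHHLA3-1 library stood alone, with siHHLA3-3 within 1.5-fold of siNC. ATG9B, a lipid scramblase of autophagosome formation, had levels of 37.7 (siNC), 136 (siHHLA3-1) and 51.3 CPM (siHHLA3-3) and was 3.60-fold higher (3.38 to 3.84). Its exons overlap those of NOS3 on the other strand by 786 bp, NOS3 was also higher (32.7 against 78.2 CPM), and without stated strand use reads of the overlap cannot be assigned to one of them.

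SAMD9L, an interferon-induced restriction factor, had levels of 73.7 (siNC), 248.8 (siHHLA3-1) and 114 CPM (siHHLA3-3) and was 3.38-fold higher (3.23 to 3.53). RSAD2, the antiviral enzyme viperin, had levels of 72.4 (siNC), 187 (siHHLA3-1) and 209.6 CPM (siHHLA3-3), so both siHHLA3 libraries were above siNC. The non-coding RNA NRIR, transcribed next to it, had levels of 4.71 (siNC) and 16.1 CPM (siHHLA3-1). GBP4, an interferon-induced GTPase, had levels of 2.87 (siNC), 10.0 (siHHLA3-1) and 2.98 CPM (siHHLA3-3), and IDO1, which degrades tryptophan, levels of 16.6 (siNC), 48.4 (siHHLA3-1) and 11.9 CPM (siHHLA3-3). For GBP4 and IDO1 only siHHLA3-1 was above siNC by more than 1.5-fold. WARS1, the tryptophanyl-tRNA synthetase, is also interferon-inducible and had levels of 1015 (siNC), 2089 (siHHLA3-1) and 1249 CPM (siHHLA3-3), and was 2.06-fold higher (2.03 to 2.08).

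Among the other higher genes, TNFRSF9, the costimulatory receptor 4-1BB, had levels of 16.1 (siNC), 43.9 (siHHLA3-1) and 16.6 CPM (siHHLA3-3). CFB, complement factor B, had levels of 9.16 (siNC), 24.9 (siHHLA3-1) and 8.85 CPM (siHHLA3-3), and ETV7, a repressor of interferon-stimulated genes, levels of 12.7 (siNC), 33.7 (siHHLA3-1) and 19.9 CPM (siHHLA3-3). DUSP8, a phosphatase of stress-activated kinases, had levels of 11.8 (siNC), 32.5 (siHHLA3-1) and 13.3 CPM (siHHLA3-3), and BMF, a BH3-only activator of apoptosis, levels of 14.8 (siNC), 40.9 (siHHLA3-1) and 12.2 CPM (siHHLA3-3). For CFB, DUSP8, BMF and TNFRSF9 the siNC and siHHLA3-3 libraries were within 1.5-fold of each other and the siHHLA3-1 library was above both. ZNF554, a zinc finger protein, differed from these in being high in both siHHLA3 libraries (14.8, 41.5 and 48.7 CPM in the siNC, siHHLA3-1 and siHHLA3-3 libraries). The ratios of IGFN1, NEURL3, PRRT2 and CORO6 were 1.78, 1.45, 1.42 and 1.35.

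**Figure D2:**
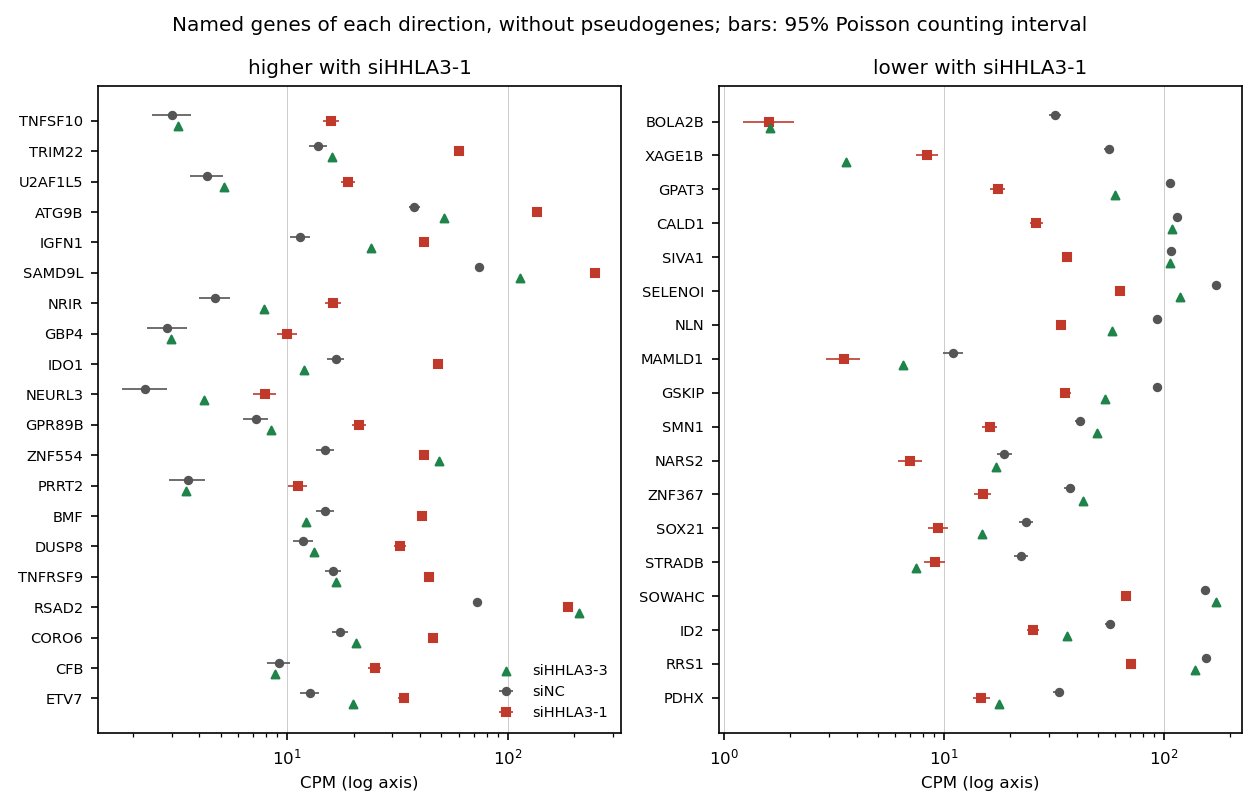
Levels in CPM on a log axis, with exact 95% Poisson counting intervals for siNC and siHHLA3-1, of the genes with the largest positive (20) and negative (18) ratios among those named at 2-fold with a mean over the pair of 5 CPM or more, pseudogenes left out. Points are the siNC, siHHLA3-1 and siHHLA3-3 libraries, and the siHHLA3-3 point often lies near siNC, as for TNFSF10 and CALD1, but lies near siHHLA3-1 for RSAD2, ZNF554 and STRADB.

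Sensors of foreign nucleic acid were above siNC throughout. All 14 compared sensors had a positive ratio, where 48.2% of all genes did, with a median of 0.48 against -0.01 for all genes. TLR3, the endosomal receptor of double-stranded RNA, had levels of 1.68 (siNC), 4.48 (siHHLA3-1) and 2.42 CPM (siHHLA3-3). IFIH1, the cytosolic sensor MDA5, had levels of 269 (siNC), 416 (siHHLA3-1) and 421 CPM (siHHLA3-3), and DDX58, which encodes RIG-I, levels of 15.4 (siNC), 24.3 (siHHLA3-1) and 22.7 CPM (siHHLA3-3). AIM2, a sensor of cytosolic DNA, had levels of 84.8 (siNC), 151 (siHHLA3-1) and 129 CPM (siHHLA3-3). These sensors were above siNC in both siHHLA3 libraries. MAVS, the adaptor through which RIG-I and MDA5 signal, was nearly level (327 against 331 CPM).

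Of the interferons, IFNB1 had 10 (siNC), 45 (siHHLA3-1) and 23 counts (siHHLA3-3) and was below the filter. It had levels of 0.312 (siNC) and 1.27 CPM (siHHLA3-1) and was 4.07-fold higher (2.02 to 9.05), with a wide interval. IFNL1, a type III interferon, passed the filter with levels of 1.78 (siNC), 3.07 (siHHLA3-1) and 2.83 CPM (siHHLA3-3). The receptor chain IFNAR1 was nearly level (51.8 against 50.7 CPM), and 5 of the 6 compared ligands and receptors had positive ratios.

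Signalling genes followed the same direction, with 16 of 16 ratios positive and a median of 0.42. Of them, 6 were at least 1.5-fold higher, where 5.03% of all genes were. STAT2, a subunit of the interferon-activated complex, had levels of 168 (siNC), 354 (siHHLA3-1) and 268 CPM (siHHLA3-3) and was 2.10-fold higher (2.03 to 2.17). BATF2, a leucine zipper factor that interferon induces, had levels of 26.1 (siNC), 66.2 (siHHLA3-1) and 55.4 CPM (siHHLA3-3). IRF1, an interferon-induced transcription factor, had levels of 56.9 (siNC), 96.5 (siHHLA3-1) and 59.7 CPM (siHHLA3-3), and IRF2, its relative, levels of 37.8 (siNC), 59.2 (siHHLA3-1) and 21.4 CPM (siHHLA3-3). IRF1 with siHHLA3-3 was close to siNC and IRF2 was below it, so those genes were higher with siHHLA3-1 alone.

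The antiviral effectors were the largest of these groups. Of 66 compared, 65 had positive ratios, 35 were 1.5-fold or more higher and 13 of those reached 2-fold. Of all genes, 5.03% and 0.973% did so. The median of the effectors was 0.62, and 0.27 in the siHHLA3-3 library. MX2, which blocks viral capsids, had levels of 182 (siNC), 443 (siHHLA3-1) and 257 CPM (siHHLA3-3), and IFIT2, which binds viral RNA, had levels of 348 (siNC), 834 (siHHLA3-1) and 532 CPM (siHHLA3-3). GBP1, a GTPase that acts on pathogen membranes, had levels of 57.1 (siNC), 145 (siHHLA3-1) and 53.9 CPM (siHHLA3-3). CASP1, the caspase of inflammasomes, had levels of 1.06 (siNC) and 4.31 CPM (siHHLA3-1). The single effector with a negative ratio was PARP9, an ADP-ribosyltransferase family member (374 against 289.6 CPM). ADAR, the RNA-editing enzyme, had levels of 1452 (siNC) and 1746 CPM (siHHLA3-1), and HELZ2 levels of 1043 (siNC) and 1784 CPM (siHHLA3-1).

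Promoters of several of these genes hold the letters of the response element described above, GAAANNGAAA on either strand. The windows below come from RefSeq promoters (GRCh38.p14, 250 bases before to 50 after the start), are written along the gene's strand with the match in capitals, and show genes whose ratios run from 0.53 to 1.33. A match is a description of letters, and binding was not measured.
GBP1 chr1:89065318-89065343 (minus): cgaagtacTTTCAGTTTCatattact
ISG20 chr15:88638939-88638964 (plus): acaaactaGAAACTGAAAcagggtcg
EPSTI1 chr13:42992274-42992299 (minus): gattctgaGAAACCGAAActcagctg
AIM2 chr1:159076939-159076964 (minus): taggccacTTTCTGTTTCcaatcagt
TAP1 chr6:32853821-32853846 (minus): gcggccgcTTTCGATTTCgctttccc
Of 10128 compared genes with a RefSeq promoter, 286 (2.82%) held the element. Among effectors it was 30 of 49 (61.2%), among sensors 6 of 11 (54.5%), among the 84 higher genes with a promoter 16 (19.0%), and among the 37 lower genes 0. Genes with the element had a median ratio of 0.15 and genes without it -0.02. The effectors without it, at 0.56, had no smaller median than those with it, at 0.52. ISG20, an RNA exonuclease, had levels of 57.5 (siNC) and 128 CPM (siHHLA3-1), and EPSTI1 levels of 51.8 (siNC) and 100.5 CPM (siHHLA3-1).

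MHC class I presentation was higher with siHHLA3-1 at the chains and at the peptide supply. All 7 compared class I chains had positive ratios, with a median of 0.52. HLA-F had levels of 17.9 (siNC), 40.4 (siHHLA3-1) and 27.4 CPM (siHHLA3-3), HLA-E levels of 293 (siNC), 446 (siHHLA3-1) and 345 CPM (siHHLA3-3), HLA-B levels of 267 (siNC), 383 (siHHLA3-1) and 311 CPM (siHHLA3-3) and B2M, the shared light chain, levels of 839 (siNC), 1007 (siHHLA3-1) and 897 CPM (siHHLA3-3). NLRC5, which drives transcription of class I genes, had levels of 168 (siNC), 325 (siHHLA3-1) and 202 CPM (siHHLA3-3) and was 1.93-fold higher (1.87 to 2.00). CIITA, its class II counterpart, was nearly level with siHHLA3-1 (25.2 against 26.9 CPM) and lower with siHHLA3-3 (10.9 CPM). Class I chains are polymorphic and alike, so reads can be split between them.

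Among 14 genes of peptide loading and processing, 11 had positive ratios. TAP1, a chain of the peptide transporter, had levels of 177 (siNC), 255 (siHHLA3-1) and 266 CPM (siHHLA3-3), and PSMB9, an immunoproteasome subunit, levels of 70.9 (siNC), 112 (siHHLA3-1) and 74.1 CPM (siHHLA3-3). The negative ratios belonged to the general endoplasmic reticulum chaperones CANX (732 against 553 CPM), PDIA3 (275 against 212 CPM) and CALR (835 against 719 CPM). The response element letters occurred in 7 of 13 promoters of this group (53.8%).

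Genes of apoptosis differed by role. Ligands and receptors of the death pathway had 13 of 15 ratios positive and a median of 0.33. TNFSF10 is described above, and its receptor TNFRSF10B had levels of 123 (siNC), 178 (siHHLA3-1) and 121 CPM (siHHLA3-3). CFLAR, which restrains caspase-8, was also higher (101.1 against 155 CPM), as was the initiator CASP10 (17.99 against 29.4 CPM). FAS was nearly level (24.4 against 26.7 CPM). Of 8 BH3-only genes, the sensors that neutralise BCL2, 3 were at least 2-fold higher (0.973% of all genes were): BMF, BBC3 and HRK. BBC3, which encodes PUMA, had levels of 16.5 (siNC), 43.2 (siHHLA3-1) and 29.5 CPM (siHHLA3-3), and HRK levels of 1.62 (siNC), 4.84 (siHHLA3-1) and 3.93 CPM (siHHLA3-3). PMAIP1, which encodes NOXA, had levels of 121 (siNC), 155 (siHHLA3-1) and 268 CPM (siHHLA3-3) and was highest with siHHLA3-3.

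The BCL2 guardians and effectors showed smaller ratios, with a median of 0.13 and 0 of 9 genes at 1.5-fold. MCL1 had levels of 607 (siNC) and 670.3 CPM (siHHLA3-1), and BAX levels of 70.3 (siNC) and 65.4 CPM (siHHLA3-1). BIRC5, an inhibitor of apoptosis that also acts in mitosis, was lower (191 against 107 CPM).

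NF-kB is the transcription factor family that drives inflammatory genes. Its subunits and inhibitors had 15 of 16 positive ratios and a median of 0.23, and TNFAIP3, a feedback inhibitor, had levels of 49.3 (siNC), 84.7 (siHHLA3-1) and 90.5 CPM (siHHLA3-3). Cytokines and other targets had a median of 0.60 over 16 compared genes, with 9 at least 1.5-fold higher (5.03% of all genes were). SOD2, the mitochondrial superoxide dismutase, had levels of 148 (siNC), 322 (siHHLA3-1) and 155 CPM (siHHLA3-3) and was 2.17-fold higher (2.10 to 2.25). CCL5, a chemokine for T cells, had levels of 16.8 (siNC), 33.7 (siHHLA3-1) and 8.93 CPM (siHHLA3-3), and ICAM1, an adhesion molecule for leukocytes, levels of 16.5 (siNC), 33.6 (siHHLA3-1) and 28.2 CPM (siHHLA3-3). SOD2 and CCL5 were not above siNC by 1.5-fold with siHHLA3-3. IL6 and IL11 were higher with siHHLA3-1 (7.86 against 12.5 CPM and 23.4 against 42.4 CPM) and higher still with siHHLA3-3 (26.4 and 70.0 CPM).

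Surface ligands seen by T and NK cells had 17 of 23 positive ratios and a median of 0.45. LGALS9, which encodes galectin-9, had levels of 24.9 (siNC), 60.4 (siHHLA3-1) and 17.6 CPM (siHHLA3-3), and PDCD1LG2, which encodes the PD-1 ligand PD-L2, levels of 6.52 (siNC), 16.4 (siHHLA3-1) and 7.35 CPM (siHHLA3-3). VTCN1, the inhibitory ligand B7-H4, had levels of 12.03 (siNC), 20.95 (siHHLA3-1) and 3.97 CPM (siHHLA3-3), and so stood above siNC with one siRNA and below it with the other. CD70, a ligand of CD27, was lower (88.0 against 50.4 CPM). The stress ligands MICA and MICB had ratios of -0.08 and -0.29.

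Genes that act in DNA replication were lower as a group, with few single genes reaching 2-fold. Origin licensing and helicase genes had 25 of 26 negative ratios, where 51.8% of all genes did, with a median of -0.52. CDC45, a subunit of the replicative helicase, had levels of 80.6 (siNC), 39.7 (siHHLA3-1) and 107 CPM (siHHLA3-3) and was 2.03-fold lower with siHHLA3-1 (95% counting interval 1.91 to 2.17). DBF4, which activates the CDC7 kinase, had levels of 113 (siNC), 61.7 (siHHLA3-1) and 105 CPM (siHHLA3-3), and MCM6, a helicase subunit, levels of 226 (siNC), 139 (siHHLA3-1) and 260.4 CPM (siHHLA3-3). For CDC45 and MCM6 the siHHLA3-3 library was above siNC, and the group's median with siHHLA3-3 was 0.12. Genes of polymerases and the sliding clamp had 27 of 27 negative ratios and a median of -0.41, with RPA1 (134 against 83.6 CPM), which coats single-stranded DNA, lowest and PCNA, the clamp, at levels of 279 (siNC), 215 (siHHLA3-1) and 336 CPM (siHHLA3-3).

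Nucleotide synthesis genes had 16 of 16 negative ratios and a median of -0.51. RRM2, the regulated subunit of ribonucleotide reductase, had levels of 454 (siNC), 317 (siHHLA3-1) and 530.1 CPM (siHHLA3-3), and TK1, a thymidine kinase, levels of 213 (siNC), 143 (siHHLA3-1) and 224 CPM (siHHLA3-3). Of 19 regulators of the G1/S transition, 14 had negative ratios, with a median of -0.32. CCND1, which encodes cyclin D1, had levels of 328 (siNC), 177 (siHHLA3-1) and 516 CPM (siHHLA3-3), and CCNA2, which encodes cyclin A2, levels of 107 (siNC), 52.1 (siHHLA3-1) and 101.4 CPM (siHHLA3-3). CCND1 was lower than siNC with siHHLA3-1 and higher with siHHLA3-3. CCNE1, which encodes cyclin E1, had a positive ratio (18.5 against 24.8 CPM), and RB1, which restrains E2F, a negative one (48.3 against 27.4 CPM).

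Mitotic genes were lower across all 4 roles examined: regulators and kinases, anaphase and exit, spindle and kinesins, and kinetochore and chromosome structure. Of 93 compared genes, 91 had negative ratios and 47 were at least 1.5-fold lower, where 3.34% of all genes were, but 0 reached 2-fold. Their median was -0.59, and -0.14 in the siHHLA3-3 library. CDC27, named below with a ratio of -1.07, is not among the 93. CDC20, the activator of the anaphase-promoting complex, had levels of 267 (siNC), 134 (siHHLA3-1) and 182 CPM (siHHLA3-3) and was 1.99-fold lower (1.92 to 2.06). PLK1, a mitotic kinase, had levels of 219 (siNC), 118 (siHHLA3-1) and 163 CPM (siHHLA3-3), and CCNB1, which encodes cyclin B1, levels of 403 (siNC), 240.4 (siHHLA3-1) and 290.1 CPM (siHHLA3-3). RACGAP1, which acts in cytokinesis, was low in both siHHLA3 libraries (333, 174 and 168 CPM in the siNC, siHHLA3-1 and siHHLA3-3 libraries).

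The spindle factor TPX2 had levels of 474 (siNC), 264 (siHHLA3-1) and 295 CPM (siHHLA3-3), and the kinetochore scaffold KNL1 levels of 82.3 (siNC), 42.7 (siHHLA3-1) and 67.3 CPM (siHHLA3-3). TOP2A, which untangles chromosomes, had levels of 758 (siNC), 434 (siHHLA3-1) and 694 CPM (siHHLA3-3), and the proliferation antigen MKI67 levels of 848 (siNC), 498 (siHHLA3-1) and 815 CPM (siHHLA3-3). TOP2A and MKI67 with siHHLA3-3 were within 1.5-fold of siNC. The exceptions to the direction were CDC25B (356 against 372 CPM), a phosphatase that activates CDK1, and NUMA1 (109.7 against 119 CPM), which anchors spindle poles. Neither cell number nor cell cycle phase was measured.

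Many promoters of mitotic genes hold the letters TTTGAA of the cell cycle genes homology region, a short element bound by the MuvB complex. The windows show it in 3 of the mitotic genes just described, written as before.
CDC20 chr1:43358908-43358929 (plus): ggttggatTTTGAAggagccaa
PLK1 chr16:23678852-23678873 (plus): gcgccgcgTTTGAAttcgggga
MKI67 chr10:128126457-128126478 (minus): cgccagaaTTTGAAtcttcgtt
These 6 letters on either strand occurred in 943 of the 10128 promoters (9.31%). Among the higher genes it was 14 of 84 promoters (16.7%) and among the lower genes 3 of 37 (8.11%). The letters occurred in 9 of 17 promoters of mitotic regulators (52.9%), 9 of 15 of anaphase and exit genes (60.0%), 15 of 21 of spindle genes (71.4%) and 17 of 26 of kinetochore genes (65.4%). Spindle genes with the letters had a median ratio of -0.62 and those without -0.37, the widest gap of these groups. In the same order the medians were -0.66 and -0.59 for regulators and -0.73 and -0.58 for anaphase and exit genes. They were -0.58 and -0.40 for kinetochore genes and -0.07 and -0.02 for all genes with a promoter. Among genes of polymerases and the clamp, 11 of 23 promoters (47.8%) held TTCCCGC, a form of the E2F site, against 10.5% of all. It was 7 of 22 for origin licensing genes (31.8%), 2 of 15 for G1/S regulators (13.3%), 0 of 21 for spindle genes and 4 of 37 for the lower genes (10.8%). A second form, TTGGCGC, occurred in 5.13% of all promoters. It was 6 of 15 for G1/S regulators (40.0%), 4 of 21 for spindle genes (19.0%) and 1 of 37 for the lower genes (2.70%).

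Repair genes shared the direction of the replication genes. Homologous recombination and Fanconi genes had 26 of 30 negative ratios and a median of -0.35, and mismatch and base excision genes 13 of 13 and a median of -0.30. BRCA1 had levels of 117 (siNC), 74.5 (siHHLA3-1) and 117 CPM (siHHLA3-3), and PARP1, which senses DNA breaks, levels of 295 (siNC), 215 (siHHLA3-1) and 282 CPM (siHHLA3-3). Inhibitors of cyclin-dependent kinases had ratios of either sign. CDKN1A, which encodes p21, had levels of 156 (siNC) and 167 CPM (siHHLA3-1), and CDKN2B, which encodes p15, levels of 31.3 (siNC) and 46.2 CPM (siHHLA3-1).

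The 25 compared genes of the p53 pathway had a median ratio of 0.00. BTG2, an antiproliferative factor, had levels of 6.70 (siNC), 16.3 (siHHLA3-1) and 13.3 CPM (siHHLA3-3), and TP53INP1 levels of 6.76 (siNC), 15.2 (siHHLA3-1) and 4.26 CPM (siHHLA3-3). HIPK2, a kinase that phosphorylates p53, was lower in both siHHLA3 libraries (386, 188 and 143 CPM in the siNC, siHHLA3-1 and siHHLA3-3 libraries), and CCNG1, a p53 target, was lower with siHHLA3-1 (116 against 64.5 CPM). In the MYC network, MYC itself was within 1.5-fold (359.7 against 338 CPM), while MXD4, which competes with MYC for the partner MAX, had levels of 24.4 (siNC), 51.5 (siHHLA3-1) and 24.1 CPM (siHHLA3-3). The other MAX partners MXI1 and MNT had ratios of 0.55 and 0.55.

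Genes of ribosome production were lower by small amounts. Genes of rRNA synthesis and processing had 40 of 41 negative ratios and a median of -0.36. With siHHLA3-3 their median was 0.07 and 31 of 41 ratios were positive, unlike those of the genes named next. RRS1, a ribosome assembly factor, had levels of 155 (siNC), 70.5 (siHHLA3-1) and 137 CPM (siHHLA3-3) and was 2.20-fold lower (2.10 to 2.31), and RRP1B levels of 103 (siNC), 55.4 (siHHLA3-1) and 87.9 CPM (siHHLA3-3). NPM1, the nucleolar chaperone nucleophosmin, had levels of 1208 (siNC), 781 (siHHLA3-1) and 897 CPM (siHHLA3-3). NOLC1, a nucleolar phosphoprotein, was the exception (288 against 359 CPM). Ribosomal protein genes had 75 of 77 negative ratios and a median of -0.21, which was -0.09 after the median of genes of like level was taken off. ODC1, the first enzyme of polyamine synthesis, had levels of 109 (siNC), 56.2 (siHHLA3-1) and 100.01 CPM (siHHLA3-3), and SAT1, which acetylates polyamines for export, was higher (171 against 263 CPM).

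Cytosolic chaperones were lower as well. HSP70 genes and partners had 20 of 24 negative ratios and a median of -0.30, and HSP90, chaperonin and small heat shock genes 20 of 22 and -0.35. HSPA8, the constitutive HSP70, had levels of 1782 (siNC), 1116 (siHHLA3-1) and 1326 CPM (siHHLA3-3), and HSP90AA1 levels of 3504 (siNC), 2349.9 (siHHLA3-1) and 3193 CPM (siHHLA3-3). FKBP4, a partner of HSP90, had levels of 185 (siNC), 86.7 (siHHLA3-1) and 175 CPM (siHHLA3-3) and was 2.13-fold lower (2.04 to 2.22). HSPB8, a small heat shock protein of selective autophagy, had a positive ratio (24.9 against 39.1 CPM), as did HSPA6 (6.30 against 9.72 CPM).

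**Figure D3:**
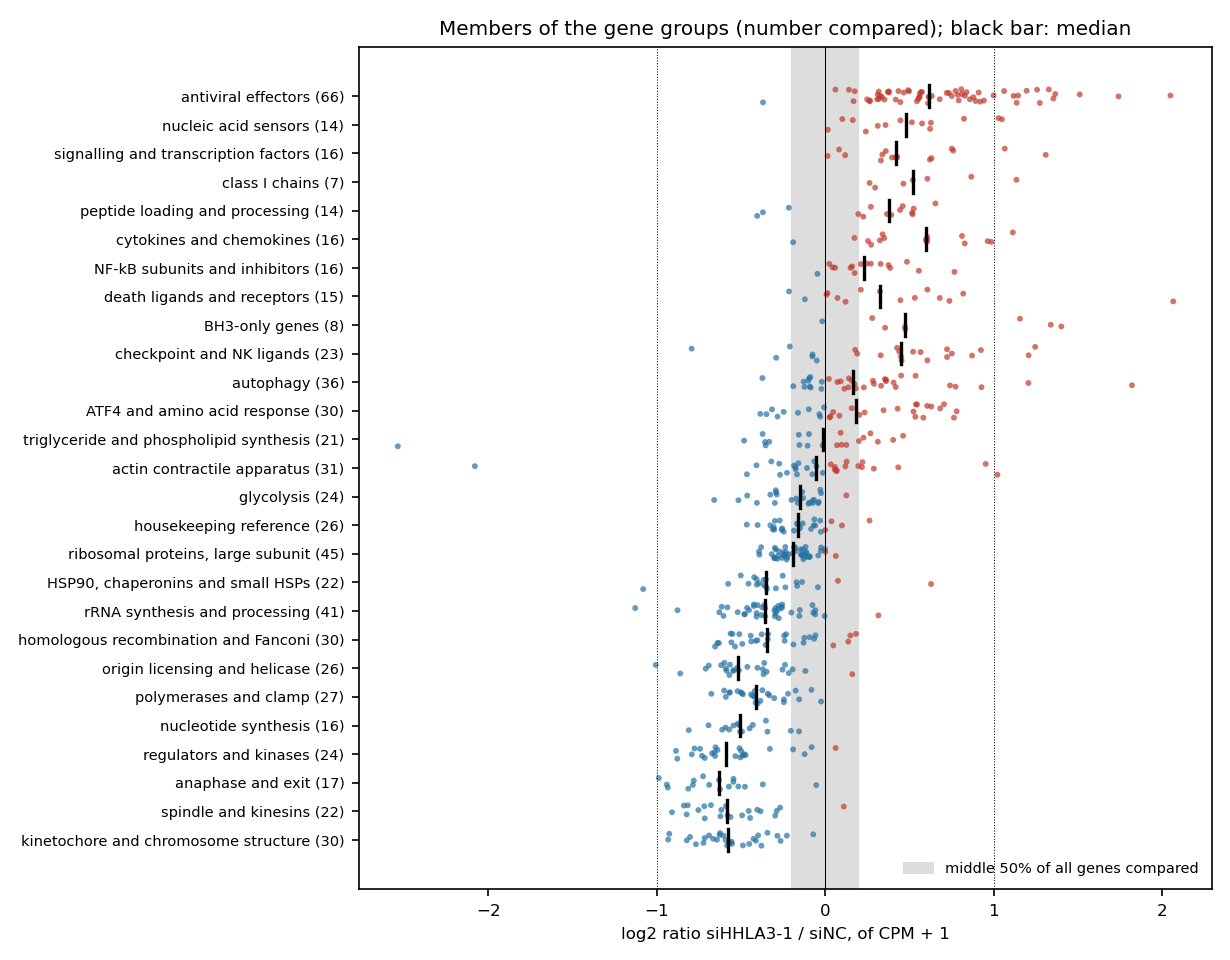
Each point is the log2 ratio (siHHLA3-1 to siNC, CPM + 1) of 1 gene of a role group, with the number compared beside the group's name the median as a black bar and the middle 50% of all genes as a grey band (red above 0, blue below). Antiviral effectors, sensors and class I chains lie almost wholly above 0, with medians of 0.62, 0.48 and 0.52, and the 3 replication groups drawn (G1/S regulators, with a median of -0.32, are not drawn) and the 4 mitotic groups almost wholly below 0, with medians from -0.63 to -0.41.

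GPAT3, a glycerol-3-phosphate acyltransferase of the endoplasmic reticulum that starts triglyceride synthesis, had one of the lowest ratios. It had levels of 107 (siNC), 17.6 (siHHLA3-1) and 59.8 CPM (siHHLA3-3) and was 6.08-fold lower with siHHLA3-1 (95% counting interval 5.58 to 6.63). Of 21 compared genes listed for triglyceride and phospholipid synthesis it was the only one 2-fold apart, and their median was -0.02. That list does not hold SELENOI, described below. The related acyltransferases GPAM and GPAT2 had ratios of -0.37 and -0.36. SELENOI, an ethanolamine phosphotransferase of phospholipid synthesis, had levels of 172 (siNC), 63.0 (siHHLA3-1) and 118 CPM (siHHLA3-3) and was 2.72-fold lower (2.59 to 2.86).

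CALD1, which encodes the actin-binding protein caldesmon, had levels of 114 (siNC), 26.3 (siHHLA3-1) and 109 CPM (siHHLA3-3) and was 4.35-fold lower (4.05 to 4.68). It was the only lower gene at 2-fold among 31 compared genes of the contractile apparatus, of which TPM2 (6.80 against 14.8 CPM) and TPM4 (383 against 742 CPM), both tropomyosins, had the largest positive ratios. SIVA1, an apoptosis-inducing protein, had levels of 108 (siNC), 36.2 (siHHLA3-1) and 107 CPM (siHHLA3-3) and was 2.98-fold lower (2.80 to 3.18). For CALD1 and SIVA1 the siHHLA3-3 library was within 1.5-fold of siNC. NLN, the peptidase neurolysin, had levels of 92.9 (siNC), 34.0 (siHHLA3-1) and 58.0 CPM (siHHLA3-3), and ID2, an inhibitor of basic helix-loop-helix factors, levels of 56.7 (siNC), 25.3 (siHHLA3-1) and 36.1 CPM (siHHLA3-3). For NLN and ID2 the siHHLA3-3 library lay between the other libraries.

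Other lower genes included GSKIP, a regulator of the kinase GSK3B (92.5, 35.6 and 53.8 CPM in the siNC, siHHLA3-1 and siHHLA3-3 libraries), and SOWAHC, an ankyrin repeat protein (153, 67.3 and 172 CPM in the siNC, siHHLA3-1 and siHHLA3-3 libraries). NARS2, the mitochondrial asparaginyl-tRNA synthetase, had levels of 18.8 (siNC), 7.01 (siHHLA3-1) and 17.2 CPM (siHHLA3-3), and PDHX, a component of pyruvate dehydrogenase, levels of 33.2 (siNC), 14.8 (siHHLA3-1) and 17.7 CPM (siHHLA3-3). SOX21, a transcription factor, had levels of 23.6 (siNC), 9.41 (siHHLA3-1) and 14.9 CPM (siHHLA3-3), and STRADB, a pseudokinase that binds LKB1, levels of 22.5 (siNC), 9.10 (siHHLA3-1) and 7.49 CPM (siHHLA3-3). STRADB was low in both siHHLA3 libraries, and NARS2 and SOWAHC were low with siHHLA3-1 alone. The ratios of MAMLD1 and ZNF367 were -1.42 and -1.26.

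The 3′ UTRs of these genes were searched for shared letters. Over 10495 genes of 5 CPM or more, 16328 sequences of 7 bases, each held by at least 30 genes, were ranked. The rank followed the difference in mean ratio between genes with and without the sequence, divided by the standard error of that difference. A frequent sequence can therefore rank ahead of a rarer one with a lower mean. CAGAATG ranked lowest, at -11.64, with a mean ratio of -0.11 for 1855 genes against 0.00 for the others. Places 2 to 5 were taken by sequences that overlap it, such as AGAATGA in place 2 (-10.61). Sequences rich in A and T came next, such as ATTTTAA in place 6 (-7.39). The opposite end of the ranking held sequences rich in C, such as CCCCTCC (10.80). The reverse complement of CAGAATG, as RNA, is CAUUCUG. Because the sequence was chosen from these ratios, the values below describe the carriers and are no support for the choice. The same 7 bases occur once in HHLA3, in the coding sequence of 6 of the 7 transcripts that hold them (the other is annotated without one), and the 29-base windows below place that match beside those in the 3′ UTRs of 8 lower genes. Each is written along the transcript (GENCODE 29, GRCh38), with the 7 bases in capitals.
HHLA3 chr1:70355006-70355034 (plus): gcagaggaatgCAGAATGacgccacggca
GPAT3 chr4:83604866-83604894 (plus): aatcttttctaCAGAATGattgtctctac
SELENOI chr2:26389311-26389339 (plus): ttttggttgagCAGAATGtacgttagacc
GSKIP chr14:96385710-96385738 (plus): tggtgctggtaCAGAATGttgatataaag
NARS2 chr11:78436587-78436615 (minus): tgtgcatacagCAGAATGcatgtttggat
SOWAHC chr2:109616336-109616364 (plus): aattgggggaaCAGAATGaatgaattaat
FKBP4 chr12:2803500-2803528 (plus): tatatattcatCAGAATGttaatttattt
CCNA2 chr4:121816897-121816925 (minus): cccagggttctCAGAATGgaataaatatc
CDC45 chr22:19520483-19520511 (plus): tttgattcttcCAGAATGaccttcttatt
Outside the 7 capital letters the windows differ as a whole, though some share bases next to the match with HHLA3. GPAT3, SOWAHC and CDC45 share the following a, and SELENOI and NARS2 the preceding g. GPAT3 holds a second match, at chr4:83605816-83605844. Anywhere in their transcripts, 98 genes share a stretch of 12 or more bases with the HHLA3 window, whether or not it holds the 7 bases. Their median ratio was -0.04, and 1 of them (1.02%) was at least 2-fold lower, where 0.379% of 13709 genes were. Whether the guide strand of siHHLA3-1 holds the complement was not tested, since that sequence is unknown here.

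A 3′ UTR could be searched for 11790 compared genes, of which 1998 (16.9%) held the 7 bases. The longest 3′ UTR annotated among the protein-coding transcripts of each gene was used, and which transcript the cells express was not determined. Of the 47 lower genes among them (0.399%), 27 held them (57.4%), compared with 16 of 114 higher genes and 16.8% of genes within 2-fold. The median ratio was -0.09 for carriers and -0.01 for other genes, and 8.21% of carriers were at least 1.5-fold lower, where 3.60% of all searched genes were. With siHHLA3-3, whose comparison uses the same siNC library, the medians were -0.04 and -0.01. At least 2-fold lower with siHHLA3-3 were 49 of the 1998 carriers and 149 of the 9792 others, 198 of all 11790. With siHHLA3-1 these counts were 27, 20 and 47. The median with siHHLA3-1 was -0.08 with 1 match, -0.14 with 2 or more and -0.20 for the 76 genes with 3 or more. The share at least 2-fold lower did not follow this order, with 1.41% at 1 match, 1.08% at 2 or more and 0 of 76 at 3 or more, and the median 3′ UTR length was 2711, 5008 and 6583 bases in the same order. It was -0.14 for the 667 genes whose match is followed by an A, as in GPAT3, and -0.07 for the 1331 others.

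Matches elsewhere in the transcript went with smaller differences. Genes with the 7 bases in the coding sequence only had a median of -0.04 (1617 genes), and those with them in the 5′ UTR only 0.00 (63 genes). Genes with the reverse complement in the 3′ UTR and no match had a median of 0.00 (1489 genes). Ratios also varied with the base composition of the 3′ UTR, from a median of -0.07 in the lowest of 4 classes of GC share to 0.05 in the highest. Within those classes carriers and other genes had medians of -0.14 and -0.05, -0.11 and -0.04, -0.07 and 0.00, and 0.01 and 0.05, in order of rising GC share. Carriers also had longer 3′ UTRs, with a median of 3043 against 1124 bases, and within each of 4 length classes their median was the lower one.

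The genes with the largest negative ratios were not all carriers. CALD1, SIVA1, NLN, SOX21, ID2, RRS1 and PDHX have no match in the 3′ UTR searched, and CALD1, NLN and HHLA3 have one in the coding sequence. Carriers were found among the groups described above too. CCNA2 and CDC45, printed above, were the 2-fold lower genes of the replication lists, and HIPK2 was that of the p53 pathway. Without carriers the mitotic genes had a median of -0.58 and the interferon list 0.57. G3BP1, the stress granule protein, and CDC27, a subunit of the anaphase-promoting complex, were carriers with ratios of -1.11 and -1.07.

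**Figure D4:**
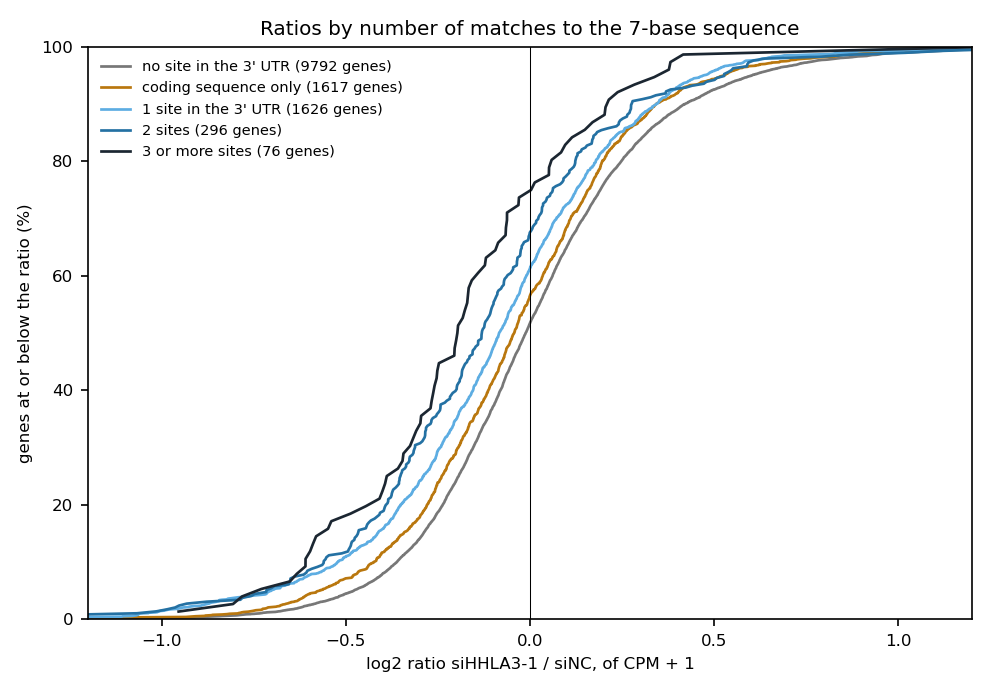
Cumulative share of genes (vertical) against the log2 ratio of siHHLA3-1 to siNC (horizontal) for genes with 0, 1 or more matches of the 7-base sequence in the 3′ UTR. The curves of genes with matches lie to the left of the curve of the 9792 genes without one, with medians of -0.08 for 1 match and -0.14 for 2 or more against -0.01.

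Autophagy and lysosome genes had more positive than negative ratios. Of 36 compared autophagy genes, 25 had positive ratios and the median was 0.17. ULK1, the kinase that starts autophagy, had levels of 34.5 (siNC), 80.9 (siHHLA3-1) and 46.5 CPM (siHHLA3-3) and was 2.35-fold higher (2.19 to 2.52). GABARAPL1, a ubiquitin-like protein of the autophagosome, had levels of 10.5 (siNC), 20.95 (siHHLA3-1) and 11.8 CPM (siHHLA3-3), and OPTN, a cargo receptor, levels of 76.3 (siNC), 128 (siHHLA3-1) and 94.1 CPM (siHHLA3-3). Of 29 lysosome genes, 22 had positive ratios. LAMP3, a lysosomal protein of dendritic and alveolar type II cells, had levels of 64.1 (siNC), 146 (siHHLA3-1) and 86.1 CPM (siHHLA3-3), and CTSS, the protease cathepsin S, levels of 52.7 (siNC), 115 (siHHLA3-1) and 43.6 CPM (siHHLA3-3). CTSD, which encodes cathepsin D, had a negative ratio (391 against 275 CPM).

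Matrix and adhesion genes had 25 of 34 positive ratios and a median of 0.24. COL1A1, a fibrillar collagen chain, had levels of 11.3 (siNC), 24.5 (siHHLA3-1) and 10.9 CPM (siHHLA3-3), SPARC, a matrix glycoprotein, levels of 275 (siNC), 417 (siHHLA3-1) and 214 CPM (siHHLA3-3), and ITGA5, the fibronectin receptor chain, levels of 677 (siNC), 1036 (siHHLA3-1) and 884 CPM (siHHLA3-3). The collagenase MMP1 had levels of 6.45 (siNC), 3.04 (siHHLA3-1) and 5.95 CPM (siHHLA3-3), and MMP13 levels of 32.3 (siNC), 53.7 (siHHLA3-1) and 33.8 CPM (siHHLA3-3). Epithelial junction and keratin genes had a median of 0.03, and in that group MUC1, a membrane mucin, had levels of 12.9 (siNC), 29.99 (siHHLA3-1) and 21.4 CPM (siHHLA3-3). IVL, which encodes the cornified envelope protein involucrin, had levels of 19.5 (siNC), 44.8 (siHHLA3-1) and 5.18 CPM (siHHLA3-3), highest with siHHLA3-1 and lowest with siHHLA3-3. SNAI2, a transcription factor of epithelial-mesenchymal transition, had levels of 12.002 (siNC), 6.00 (siHHLA3-1) and 6.39 CPM (siHHLA3-3), and VIM, which encodes vimentin, was level (42.7 against 42.0 CPM). LATS2, a kinase that restrains YAP, had levels of 27.8 (siNC), 61.6 (siHHLA3-1) and 25.2 CPM (siHHLA3-3).

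Chromatin regulators differed gene by gene. Of 28 histone deacetylases and demethylases 22 had positive ratios. HDAC9 had levels of 55.7 (siNC), 132 (siHHLA3-1) and 135 CPM (siHHLA3-3), and KDM6B, which removes a repressive mark from histone H3, levels of 31.9 (siNC), 71.7 (siHHLA3-1) and 65.2 CPM (siHHLA3-3), and both were high in both siHHLA3 libraries. DNMT3B, a DNA methyltransferase, had levels of 70.0 (siNC), 130.4 (siHHLA3-1) and 112 CPM (siHHLA3-3), while DNMT1, which copies methylation at replication, had levels of 354 (siNC), 272 (siHHLA3-1) and 393 CPM (siHHLA3-3). In the small RNA and decay machinery, XRN1, the main cytoplasmic exonuclease, had levels of 84.4 (siNC), 162 (siHHLA3-1) and 95.9 CPM (siHHLA3-3), and AGO2, the slicer that siRNAs use, levels of 82.3 (siNC), 62.7 (siHHLA3-1) and 104 CPM (siHHLA3-3).

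Some large ratios belong to genes with near-identical copies, between which counting can split reads. BOLA2B had levels of 31.9 (siNC), 1.61 (siHHLA3-1) and 1.62 CPM (siHHLA3-3), and XAGE1B levels of 56.0 (siNC), 8.39 (siHHLA3-1) and 3.60 CPM (siHHLA3-3), with its copy XAGE1A at levels of 2.87 (siNC) and 2.20 CPM (siHHLA3-1). CT45A2 had 266 (siNC), 4 (siHHLA3-1) and 345 counts (siHHLA3-3), and its copy CT45A1 levels of 79.3 (siNC) and 72.2 CPM (siHHLA3-1). SMN1 had levels of 41.6 (siNC) and 16.1 CPM (siHHLA3-1), and SMN2 levels of 13.5 (siNC) and 10.9 CPM (siHHLA3-1). The pseudogene MTX1P1 had a ratio of -1.17 and its parent gene MTX1 one of -0.06. U2AF1L5 had levels of 4.33 (siNC) and 18.9 CPM (siHHLA3-1), and U2AF1 levels of 4.11 (siNC) and 8.67 CPM (siHHLA3-1). GPR89B and GPR89A differed in opposite directions (7.201 against 21.2 CPM and 20.8 against 13.7 CPM). The exons of 37 of the 135 higher and 15 of the 53 lower genes overlap a gene on the other strand, as do those of 39.1% of the 13710 compared genes with a position.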

How the data were processed

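RNA of 3 libraries of H1975 cells (siNC, siHHLA3-1 and siHHLA3-3, 1 library each) was sequenced, and 1 table of all genes was used. Its columns hold read counts, CPM, FPKM and TPM per gene as deposited by the authors, per the file headers. The submitters' processing notes name HISAT2, HISAT, TopHat2, Bowtie2 and hg19. No source used here gives the read counter, the annotation or whether strand was used, so reads of overlapping genes cannot be assigned to a strand. The counts were whole numbers. The deposited CPM equal the counts scaled to the library total, and FPKM and TPM, which the authors also divided by gene length, served as alternatives. All per-sample columns were mapped (0 were not).

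The main values are TMM-scaled CPM (edgeR 4.0.16, R 4.3.3) with a pseudocount of 1 CPM, over genes whose mean across all 3 libraries reached 1 CPM. Each fold has an exact 95% binomial interval from the pair's counts (scipy 1.17.1, numpy 2.4.6, pandas 2.3.3, Python 3.11.15, figures with matplotlib 3.10.9). The steps were tested on simulated data. Lists were described by counts and medians. Gene positions and 3′ UTRs came from GENCODE 29 (GRCh38) and promoters from RefSeq (GRCh38.p14), matched by gene identifier or symbol, and hg19 coordinates were not used.

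Members, lists and the 7-base sequence were chosen with earlier results of these data known. Genes named are HHLA3 and its neighbours, the first 20 in each direction among genes 2-fold apart whose mean over the pair reached 5 CPM, and, for each described role, up to 6 members with the largest absolute ratio, up to 3 with the highest CPM and any at 0. Genes without a usual symbol were counted and not named. A few genes meeting these criteria are not reported here. Others, such as NOS3, G3BP1, CDC27, VIM, MX1 and NT5C3A, were chosen after their values were seen. Alternatives changed the scaling (DESeq2 1.42.0 size factors, library totals, TMM of the pair), pseudocount, filter, unit, depth, fold limit and centring by level, or left out carriers of the 7 bases.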

Additional observations from a re-analysis of the deposited data

Results flagged for a closer look

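Among genes at least 2-fold higher with siHHLA3-1, CDH5 and IVL were at least 2-fold lower with siHHLA3-3. CDH5, the endothelial cadherin, had levels of 7.95 (siNC), 19.2 (siHHLA3-1) and 3.01 CPM (siHHLA3-3), with log2 ratios of 1.17 for siHHLA3-1 and -1.16 for siHHLA3-3. IVL, which encodes involucrin, had log2 ratios of 1.16 and -1.73 in the same order. Both comparisons share the siNC library, each group had 1 library, and the difference between the siRNAs was not tested.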

How the results depend on the processing

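The ratio of HHLA3 was -1.88 with a pseudocount of 0.1 CPM, lay between -1.69 (TPM) and -1.34 (FPKM) under the other alternatives, and had no value at a minimum of 5 CPM. The 135 higher genes became 233 with that pseudocount, 89 with FPKM and 698 at 1.5-fold, and the 53 lower genes 80, 23 and 463, or 26 without carriers of the 7 bases. When ratios were centred on genes of like level, the medians of the translation, ribosomal protein and RNA machinery lists, -0.20, -0.21 and -0.17 before, were -0.091, -0.092 and -0.056. Without carriers the Notch and WNT median, -0.01 before, was 0.093 and the clock median, -0.21 before, was -0.0445. At 5 CPM the median of the target locus, which then lacks HHLA3, was 0.063 in place of -0.062. The interferon list kept a median of 0.56 to 0.63 and the mitosis list one of -0.59 to -0.51 under every alternative run. The median of carriers minus that of other genes stayed between -0.08 and -0.07, under alternatives chosen after seeing the data. Over all lists and alternatives, 1237 medians differed from the reported one by at most 0.1 and 35 by more, and 0 of those reported at 0.1 or more from 0 changed sign. For the 40 genes named by size, 419 values differed by at most 0.1 and 49 by more, and 0 changed sign. With FPKM the ratios of U2AF1L5, GBP4 and MAMLD1 were 0.98, 0.87 and -0.77, short of 2-fold. The same 1 was added to FPKM, which is CPM per kilobase, so it shrinks the ratios of longer genes more. In the order given these genes are 11119, 6141 and 6664 bp long. The added 1 acts in the same way on the counts of 89 and 23 genes with FPKM. The cause of the other shifts was not tested. No paired analysis was possible because each group had 1 library, and for the same reason no library could be left out. Intervals cover counting error only, so depth does not limit the genes of high count, and the missing spread between cultures does.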

Other observations

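Targets of ATF4, the transcription factor of the amino acid and stress response, had ratios of either sign with siHHLA3-1. Of 30 compared, 20 had positive ratios (48.2% of all genes did), the median was 0.18, 0 reached 2-fold and the summed level was 3649 (siNC) and 3645 CPM (siHHLA3-1), while the median was 0.74 with siHHLA3-3. DDIT3, which encodes the stress factor CHOP, had levels of 14.4 (siNC), 21.1 (siHHLA3-1) and 56.2 CPM (siHHLA3-3), and TRIB3, a pseudokinase that ATF4 induces, levels of 93.1 (siNC), 136 (siHHLA3-1) and 240.4 CPM (siHHLA3-3). For both genes siHHLA3-1 lay between the other libraries. Genes of the NRF2 antioxidant pathway had 22 of 28 negative ratios and a median of -0.17. GPX2, a glutathione peroxidase, had levels of 5.55 (siNC), 2.11 (siHHLA3-1) and 2.75 CPM (siHHLA3-3), and NQO1, a quinone reductase, levels of 502 (siNC), 409 (siHHLA3-1) and 410.0 CPM (siHHLA3-3), so both were low in both siHHLA3 libraries. Glycolysis genes had 23 of 24 negative ratios and a median of -0.15, and nuclear subunits of oxidative phosphorylation 35 of 38 and -0.16, beside -0.16 for 26 reference genes of general use. SLC2A1, the glucose transporter GLUT1, had levels of 411 (siNC), 288 (siHHLA3-1) and 305 CPM (siHHLA3-3). LDHA, which makes lactate, had levels of 2196 (siNC), 1593 (siHHLA3-1) and 548 CPM (siHHLA3-3) and was lowest with siHHLA3-3.

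Ligands of the EGFR family differed in direction between the siRNAs. TGFA had levels of 28.9 (siNC), 18.2 (siHHLA3-1) and 44.9 CPM (siHHLA3-3), NRG1 levels of 20.3 (siNC), 12.6 (siHHLA3-1) and 32.5 CPM (siHHLA3-3) and EREG levels of 70.7 (siNC), 56.5 (siHHLA3-1) and 141 CPM (siHHLA3-3). HBEGF had levels of 8.29 (siNC), 12.4 (siHHLA3-1) and 4.92 CPM (siHHLA3-3), the opposite order. None of these 4 reached 2-fold with siHHLA3-1.

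Higher genes lay next to each other on the chromosome in several places. Of 129 higher genes with a position, 17 (13.2%) had another higher gene as the next compared gene, where 1.85% of all 13710 genes with a position had a higher gene beside them. These neighbours include NOS3 and ATG9B, whose exons overlap on opposite strands, and SLC9A3 with SLC9A3-AS1, named as its antisense transcript. Without stated strand use, reads of such overlaps cannot be assigned to one gene, and their part in the 13.2% was not tested. None of the 53 lower genes had a lower one beside it, and 0.773% of all genes did. The longest run was NRIR, CMPK2 and RSAD2 at chr2:6828514-6898239 (GRCh38), and CMPK2, a mitochondrial nucleotide kinase, had levels of 141 (siNC), 312 (siHHLA3-1) and 189.6 CPM (siHHLA3-3). At 1.5-fold, 136 of 679 higher genes (20.03%) had such a neighbour, beside 9.53% of all genes. The runs include CASP4, CASP1 and CARD16, which encode inflammatory caspases and a relative, APOL3, APOL2 and APOL1, and MX2 and MX1. CASP4 had levels of 58.9 (siNC), 98.4 (siHHLA3-1) and 99.4 CPM (siHHLA3-3), APOL3 levels of 14.8 (siNC), 28.8 (siHHLA3-1) and 13.0 CPM (siHHLA3-3) and MX1 levels of 574 (siNC), 1149.6 (siHHLA3-1) and 828 CPM (siHHLA3-3).

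The median ratio was -0.02 for 11835 protein-coding genes and 0.12 for 1119 long non-coding genes. Long non-coding genes had a lower median level (2.77 against 35.4 CPM). The median ratio also varied with the level, and the part of the level in this difference was not tested.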
